A study of Mus musculus with 138 samples.

Results

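MHC class II genes code for the molecules that hold peptides of proteins taken up from outside the cell and show them to CD4+ T cells. The 9 genes described here were H2-EA, H2-AA, H2-AB1, H2-EB1, CD74, H2-DMA, H2-DMB1, H2-DMB2 and CIITA, written below in the usual mouse spelling (H2-Ea, H2-Aa and so on). Rows were taken by name: every row of the scanner table with one of these target names was used, with C2TA also read as Ciita. No row bore the name CD74, and the 3 rows of the target II were taken as Cd74, the invariant chain, whose older name is Ii. The RefSeq gene table gives II as a synonym of 2 genes, Cd74 and St6galnac2, and St6galnac2 had 3 rows under its own name. This made 17 rows of 45281 on the array for 9 of 9 genes: 4 for H2-Ab1, 3 for Cd74, 2 each for H2-DMa, H2-DMb2 and Ciita, and 1 each for H2-Ea, H2-Eb1, H2-Aa and H2-DMb1. All 17 rows passed the filter on dim rows, a detection p under 0.05 in at least 14 mice, as did 24450 rows in all.

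The samples were lung tissue of 138 mice, 1 from each partly inbred line of the pre-Collaborative Cross, a panel bred from 8 founder strains (129S1/SvImJ, A/J, C57BL/6J, CAST/Ei, NOD/LtJ, NZO/H1LtJ, PWK/Ph and WSB/Ei). Each mouse was sensitised intraperitoneally with 10 ug of Der p 1, an allergen of the house dust mite, given 50 ug on day 15 and killed on day 18, 72 hours after that challenge. All mice form 1 group, with no untreated or founder mice, so nothing below is an effect of the allergen, and genotypes, sex and age were not used here. Values are the deposited normalised log2 intensities of Illumina WG6v2 bead arrays, 1 array a mouse, so the number of arrays limits the precision and a mouse has no technical replicate.

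The number of rows detected per array was 19075 to 21472, and the median scanner signal of an array was 32.1 to 68.7. Lung identity was plain in the alveolar type 2 cell markers, 10 of 10 of which were kept, with mean log2 levels from 8.97 (Etv5) to 12.8 (the chemokine Cxcl15). A number in the sample titles, whose meaning the sources used here do not give, split the mice into 73 with a number up to 100 and 65 with a number above it, and results are also given within these ranges.

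In the mouse, H2-Aa and H2-Ab1 code for the alpha and beta chains of the A molecule, and H2-Ea and H2-Eb1 for those of the E molecule. Cd74 escorts new molecules to the endosome and blocks their groove, and the H2-DM dimer, of H2-DMa with H2-DMb1 or H2-DMb2, exchanges the last piece of it for peptide. Ciita codes for the coactivator that switches on the genes of this group, and interferon gamma is a known inducer of it. Dendritic cells, B cells, macrophages and, in the lung, alveolar type 2 cells carry class II molecules. In the RefSeq table H2-DMa, H2-DMb2, H2-DMb1, H2-Ab1, H2-Aa, H2-Eb1 and H2-Ea follow in this order on chromosome 17, with H2-Oa before and H2-Ob and H2-Eb2 among them, while Ciita lies on chromosome 16 and Cd74 on chromosome 18. The A and E genes are known to be among the most variable between mouse strains, and C57BL/6J and NOD mice are known to make no H2-Ea transcript.

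The 4 genes of the A and E molecules had 2 separated levels among the mice, and the other 5 genes did not. A row was called so where a mixture of 2 normal distributions fitted better than 1 (BIC lower by over 10), with at least 5% of mice in the smaller part and the means separated by more than 1 log2 and by more than 3 pooled SDs. This held for 7 of 17 class II rows, against 6.07% of the 24450 rows kept. The levels come from the measured values themselves, so they are descriptions and carry no test.

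H2-Ea, the alpha chain of the E molecule, ranged from 4.98 to 12.7 log2, with a median of 10.2. In 83 mice it lay at 7.91 to 12.7 (fitted mean 10.96) and in 55 mice at 4.98 to 7.25 (fitted mean 5.55), a gap of 5.41 log2 between fitted means that has no exact fold, since most of the low mice were below detection. In the higher level 1 mouse, at 7.91, stood apart from the next at 9.46. Of the 55 mice at the lower level, 42 had no detectable H2-Ea signal and 13 did, and the values of 11 were at 6 or above. Its SD across mice, 2.76 log2, was above that of 99.99% of the rows kept.

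H2-Eb1, the beta chain of the E molecule, ranged from 6.54 to 12.7 log2, with a median of 11.6. It was at 9.86 to 12.7 (fitted mean 11.73) in all but 33 mice, in which it was at 6.54 to 9.31 (fitted mean 7.56), 18.0-fold apart. It was detected in all 138 mice, so its lower level was above background, unlike that of H2-Ea in most of its low mice. For this beta chain the placing of 1 mouse was unclear, with a probability under 0.9 for either level.

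H2-Aa, the alpha chain of the A molecule, ranged from 5.29 to 11.8 log2, with a median of 9.32. It was at 8.35 to 11.8 in 79 mice (fitted mean 10.14) and at 5.29 to 7.45 in 59 mice (fitted mean 6.04), 4.11 log2 apart. Of the 59 mice at the lower level, 40 had a detectable signal and 19 did not, so this gap too gives no exact fold.

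H2-Ab1, the beta chain of the A molecule, was read by 4 rows that did not tell the same story. ILMN_1226525 was at 10.1 to 12.9 log2 in 91 mice and at 5.44 to 9.09 in 47 mice, with fitted means 5.01 log2 apart and 4 of the low mice below detection. ILMN_2607675, the brightest row, was at 11.6 to 13 in 129 mice and at 9.24 to 11.1 in 9 mice, 4.36-fold apart. ILMN_2631423 placed 36 mice at its lower level and ILMN_2913716 placed 30, with 14 and 26 mice unclear. The 4 rows are of 1 gene in the same lungs, yet ILMN_1226525 and ILMN_2607675 had 7 low mice in common, out of 47 and 9.

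Across the 138 mice, the correlation r between 2 of these H2-Ab1 rows ran from -0.0491 to 0.718. The 2 H2-DMa rows had r = 0.909, the Cd74 rows 0.604 to 0.653, the Ciita rows 0.636 and the H2-DMb2 rows 0.442. These are descriptions of rows that share an array and a gene. A low value of a row can stand for less transcript or for a transcript that differs from the strain the array was designed on where the row binds. Where the rows bind was not looked up, and which of these applied was not tested.

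**Figure D1:**
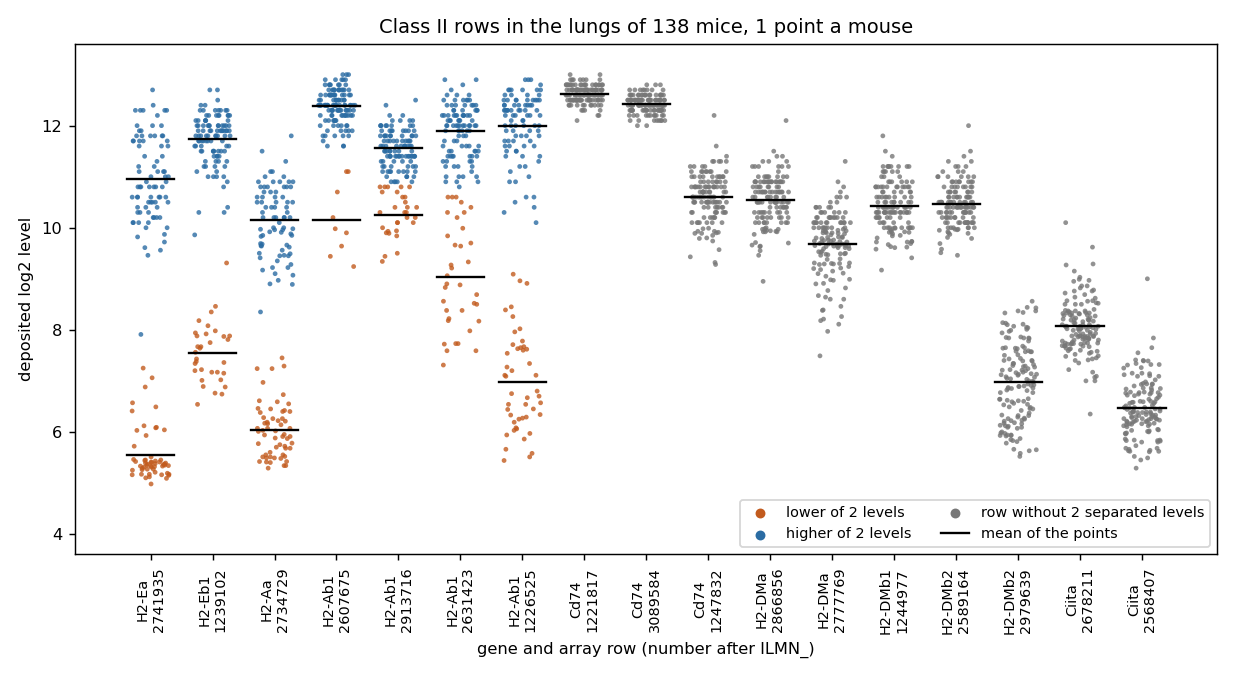
Deposited log2 level (vertical axis) of the 17 class II rows (horizontal axis) in 138 mice, 1 point a mouse with random sideways spread. Blue and orange points are mice at the higher and lower of 2 separated levels, grey points belong to rows without them, and black bars are the means of the points. H2-Ea, H2-Eb1, H2-Aa and ILMN_1226525 of H2-Ab1 split into 2 bands, while the Cd74, H2-DM and Ciita rows form 1 band each.

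The levels of the 4 A and E genes, read together, fell into 8 of 16 possible combinations, the form in which haplotypes of this region would show. ILMN_1226525 stood for H2-Ab1, since it, like the H2-Ea, H2-Eb1 and H2-Aa rows, left at most 1 mouse unclear, and 2 mice were unclear in any of the 4. High and low H2-Ab1 in the combinations therefore mean this row only, and the other H2-Ab1 rows could differ in the same mice. Each of the 8 combinations was seen in at least 10 mice and in both ranges of the title number. No combination was tied to a founder strain, since no founder arrays or genotypes were used, and partly inbred mice may carry a pair of different haplotypes.

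H2-Ea low with H2-Eb1, H2-Aa and H2-Ab1 high was seen in 28 mice (20.3%), 13 of them with a title number up to 100 and 15 above. It was the most frequent combination here, but with neqc values, which place fewer mice low in H2-Ea, it held 21 mice and all 4 rows high held 27. H2-Aa alone was low in 22 mice (15.9%), and all 4 rows were high in 21 mice (15.2%). H2-Eb1 alone was low in 20 mice (14.5%). In these 4 combinations at most 1 of the 4 rows was at its lower level, which for H2-Eb1 was still detected in 20 of 20 mice and for H2-Aa in 13 of 22.

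H2-Ea, H2-Aa and H2-Ab1 were low with H2-Eb1 high in 14 mice (10.1%), and all 4 rows were low in 13 mice (9.42%), in which ILMN_2607675 of H2-Ab1 lay at 12.2 to 12.8 with 0 low. H2-Aa and H2-Ab1, the A molecule's chains, were low together with both E genes high in 10 mice (7.25%). ILMN_1226525 of H2-Ab1 alone was low in the other 10 mice (7.25%), in which the brightest H2-Ab1 row, ILMN_2607675, lay at 12.3 to 12.9 with 0 low. Of the 47 mice with ILMN_1226525 of H2-Ab1 low, 37 were also low in H2-Aa and 10 were not.

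Within a combination the values were narrow for some genes and wide for others, such as H2-Ea at 7.91 to 12.4 log2 where all 4 rows were high. Where only the A genes were low, H2-Ea lay at 11.7 to 12.7 log2, and H2-Ab1 at 7.34 to 9.09. Where only ILMN_1226525 of H2-Ab1 was low, it lay at 5.44 to 7.62, with H2-Aa at 9.41 to 11. Where only H2-Eb1 was low, it lay at 6.54 to 9.31, the whole range of its lower level, and H2-Ea at 10.0 to 11.2. Where all 4 were low, H2-Eb1 lay at 7.17 to 8.46 and H2-Ea at 5.10 to 6.88, and H2-Ea was detected in 4 of these 13 mice.

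The other H2-Ab1 rows followed these combinations only in part. Of the 9 mice low in ILMN_2607675, 7 had both A genes low with the E genes high, and 2 had H2-Aa alone low. Of the 22 mice with H2-Aa alone low, 18 were low in ILMN_2631423 and 18 in ILMN_2913716. ILMN_2631423 also split other combinations, with 6 of 10 mice low where ILMN_1226525 alone was low, 5 of 10 where it was low with H2-Aa, 4 of 21 where all 4 rows were high and 3 of 20 where H2-Eb1 alone was low. In the 55 mice with H2-Ea low, 0 were low in ILMN_2607675 and 0 in ILMN_2631423. With 26 mice unclear in ILMN_2913716, its 8 low mice among the 13 with all 4 genes low are the least certain of these counts.

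**Figure D2:**
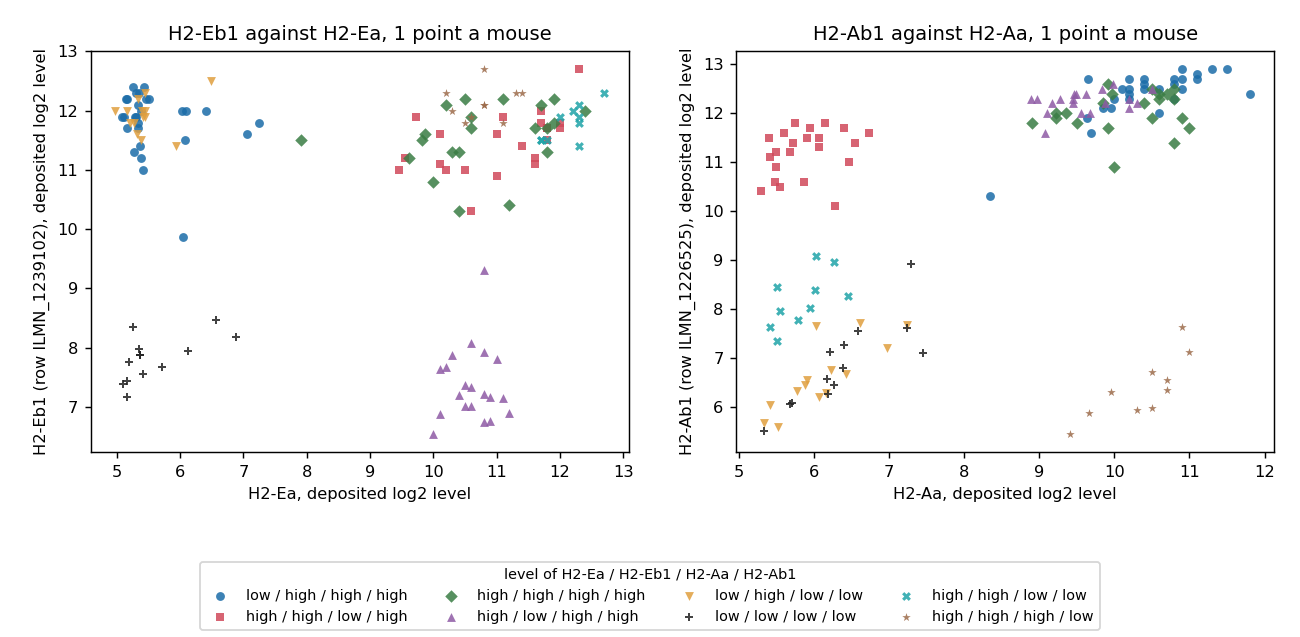
Deposited log2 level of H2-Eb1 against H2-Ea (left) and of H2-Ab1, row ILMN_1226525, against H2-Aa (right), 1 point a mouse. Colours and symbols mark the 8 combinations of levels of the 4 genes seen in the 138 mice, and each panel shows 4 separate clouds.

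**Figure D3:**
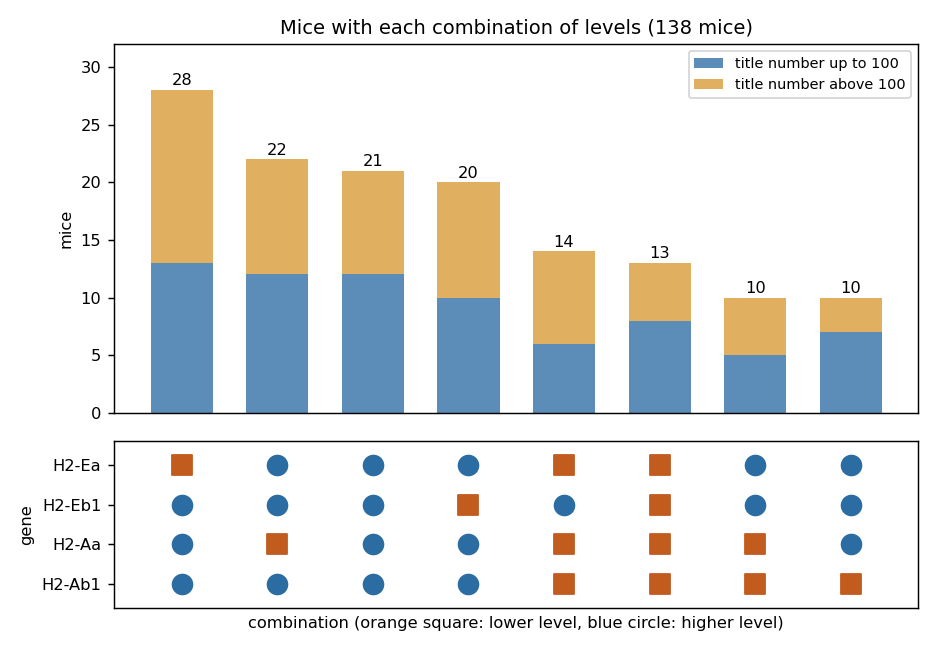
Number of mice (vertical axis, bars) with each of the 8 combinations of levels of H2-Ea, H2-Eb1, H2-Aa and H2-Ab1, split by the number in the sample title. Below each bar, orange squares mark genes at the lower level and blue circles genes at the higher level. Counts run from 28 mice (H2-Ea alone low) to 10 mice.

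The 5 genes without 2 levels were expressed in every lung and moved together. Cd74, the invariant chain, was near the top of the scale: its brightest row ranged from 12.1 to 13 log2 with a median of 12.6 and an SD of 0.16, and its dimmest, ILMN_1247832, from 9.28 to 12.2 with an SD of 0.46. Deposited values of 10 and above are given in steps of 0.1 log2, which is coarse beside the first of these SDs. H2-DMa (row ILMN_2866856) ranged from 8.95 to 12.1 with a median of 10.6, H2-DMb1 from 9.17 to 11.8 with a median of 10.4, and H2-DMb2 (row ILMN_2589164) from 9.46 to 12.0 with a median of 10.4. Ciita (row ILMN_2678211) ranged from 6.35 to 10.1 with a median of 8.03. The mouse of line OR1427 had the highest value in the row used here of H2-DMa, H2-DMb2 and Ciita, and that of line OR5513 the highest value of H2-DMb1. Of the other rows, ILMN_2777769 of H2-DMa ranged from 7.49 to 11.3, ILMN_2979639 of H2-DMb2 from 5.52 to 8.56 and ILMN_2568407 of Ciita from 5.29 to 9, and some mice lay below detection in these rows of H2-DMb2 and Ciita. By combination, ILMN_2979639 of H2-DMb2 lay at 5.52 to 7.16 where H2-Eb1 alone was low. It lay at 5.66 to 6.9 where H2-Ea, H2-Eb1, H2-Aa and H2-Ab1 were all low. Where H2-Ea alone was low it lay at 6.46 to 8.43. The brighter H2-DMb2 row did not show this, at 9.51 to 11.3, 10.1 to 11.4 and 9.58 to 11.2. ILMN_2777769 of H2-DMa lay at 7.49 to 11.3 where H2-Aa alone was low and 8.9 to 10.7 where H2-Ea alone was. The 11.3 was the mouse of line OR1427, and the rest with H2-Aa alone low lay at 7.49 to 9.69. The brighter H2-DMa row lay at 8.95 to 12.1 and 9.93 to 11.5 in these combinations. Its 12.1 was again the mouse of line OR1427, with the next at 10.9. These ranges overlap and were not tested. Levels are not set against each other between genes, since each row has its own brightness.

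Among the pairs of Cd74, H2-DMa, H2-DMb1, H2-DMb2 and Ciita, 1 row a gene, 10 of 10 were positively correlated over the 138 mice and passed a permutation test (100000 draws, two-sided, Benjamini-Hochberg over the 71 correlations of this family). Ciita and H2-DMb2 were the closest, at r = 0.769 and rho = 0.720, with r = 0.752 and 0.787 within the lower and upper title number ranges and 0.743 without the 2 mice farthest from the median. H2-DMb1 and H2-DMb2, the alternative beta chains of the DM dimer, had r = 0.745 and rho = 0.716, and H2-DMa and H2-DMb2 r = 0.728 and rho = 0.684. The adjusted permutation p of each of these 3 was 3.74e-05, the smallest that the draws and the adjustment gave. All 10 r pooled the mice of the different combinations and were not taken combination by combination.

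Ciita also tracked H2-DMa (r = 0.689, rho = 0.647), H2-DMb1 (r = 0.639, rho = 0.582) and Cd74 (r = 0.525, rho = 0.487). The chaperone Cd74 tracked H2-DMb2 at r = 0.666, H2-DMa at 0.607 and H2-DMb1 at 0.547. H2-DMa and H2-DMb1 were the loosest pair, at r = 0.339 and rho = 0.266, with adjusted permutation p of 0.000169 for r. Within title numbers up to 100 that pair had r = 0.252 and did not pass, and above 100 it had r = 0.425, and the 9 other pairs passed in both ranges. Without the 2 mice farthest from the median of the first gene, r of the 10 pairs lay between 0.284 (H2-DMa with H2-DMb1) and 0.743. In the lung as a whole, fewer cells of a type and less RNA per cell cannot be told apart.

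**Figure D4:**
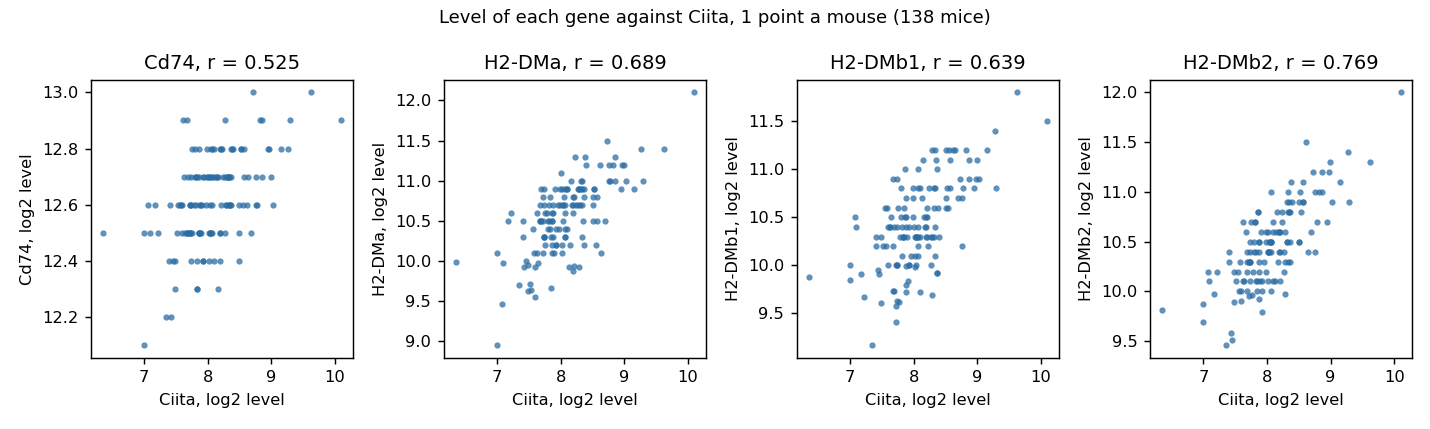
Log2 level of Cd74, H2-DMa, H2-DMb1 and H2-DMb2 (vertical axes) against that of Ciita (horizontal axis), 1 point a mouse, 138 mice. All 4 clouds slope upward, with Pearson r of 0.525, 0.689, 0.639 and 0.769, and the steps of 0.1 log2 in the deposited values show as horizontal lines for Cd74.

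Promoters of these genes carry the X and Y boxes on which Ciita is known to act through the RFX and NF-Y factors, and they are shown here because members moved with Ciita. The letters searched were AACNGATG (core of the X box), ATTGG (core of the Y box) and TGACGTCA (a CRE, the site of CREB), each on both strands of the 300 bases from 250 before to 50 after the RefSeq start (build GRCm38.p6). The letters and the spacing below were chosen after these promoters were read. The table held H2-Aa, H2-Eb1, H2-DMa (2 starts), H2-DMb1 and H2-DMb2 among the members, and not H2-Ea, H2-Ab1, Ciita or Cd74. Matches are in capitals, each sequence runs 5′ to 3′ along the gene's own strand, and H2-Aa is from chr17:34287774-34288073, minus strand, H2-Eb1 from chr17:34305617-34305916, plus strand, H2-DMb1 from chr17:34152941-34153240, plus strand, and H2-DMb2 from chr17:34144999-34145298, plus strand.
H2-Aa: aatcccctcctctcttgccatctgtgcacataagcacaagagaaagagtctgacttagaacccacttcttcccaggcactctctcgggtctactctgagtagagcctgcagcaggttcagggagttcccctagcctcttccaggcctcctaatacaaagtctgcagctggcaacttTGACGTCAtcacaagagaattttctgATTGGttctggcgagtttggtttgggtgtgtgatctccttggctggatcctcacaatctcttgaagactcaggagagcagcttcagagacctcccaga
H2-Eb1: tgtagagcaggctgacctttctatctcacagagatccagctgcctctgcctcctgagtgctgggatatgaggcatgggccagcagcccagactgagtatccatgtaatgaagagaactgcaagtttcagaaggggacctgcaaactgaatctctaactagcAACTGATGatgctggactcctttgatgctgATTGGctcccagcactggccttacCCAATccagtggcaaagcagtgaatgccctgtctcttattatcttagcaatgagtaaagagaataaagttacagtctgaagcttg
H2-DMb1: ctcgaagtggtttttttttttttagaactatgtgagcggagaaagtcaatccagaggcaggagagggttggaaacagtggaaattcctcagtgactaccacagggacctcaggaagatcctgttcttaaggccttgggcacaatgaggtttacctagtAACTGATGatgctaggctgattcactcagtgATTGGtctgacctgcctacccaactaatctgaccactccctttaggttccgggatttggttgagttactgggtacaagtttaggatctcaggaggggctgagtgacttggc
H2-DMb2: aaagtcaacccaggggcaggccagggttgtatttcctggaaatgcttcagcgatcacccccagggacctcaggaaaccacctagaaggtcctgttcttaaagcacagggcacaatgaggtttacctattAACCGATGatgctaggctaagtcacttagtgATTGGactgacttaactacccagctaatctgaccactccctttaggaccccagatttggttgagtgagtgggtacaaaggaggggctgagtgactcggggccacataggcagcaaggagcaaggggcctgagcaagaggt

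H2-DMb1 and H2-DMb2 each hold the X box core and, 23 bases after it, the Y box core, and H2-Eb1 holds them 22 bases apart with a further Y box core on the other strand. The X box core begins 89 bases before the start in H2-Eb1 and 92 in H2-DMb1, and farther off in H2-DMb2, whose Y box core begins 90 bases before the start. The H2-Aa window holds the CRE and the Y box core but not these letters of the X box, and the H2-DMa windows hold neither the X box core nor the CRE. Of 32851 such promoters in the table, 2.32% held the X box core, 37.4% the Y box core and 1.79% the CRE, and the motifs do not overlap in the 4 shown. An X box core followed on the same strand within 30 bases by a Y box core was found in 8 of the 32851 (0.024%). With a spacing of 22 or 23 bases these were H2-Eb1, H2-Eb2, H2-DMb1, H2-DMb2 and BC051142, all on chromosome 17, and the other 3 had 4 to 6 bases between. A match is a run of letters, not a bound site, and the sequence is that of the reference genome, not of these mice.

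Within 1 level, the A and E genes also varied, and 22 of 61 correlations taken within levels passed, all of them positive. Where a gene had 2 levels, r was taken only among mice of the same level, H2-Ab1 being read by its brightest row. Such a group of mice could still hold more than 1 of the combinations above, and r was not taken combination by combination. In the mice with H2-Eb1 high, this beta chain rose with H2-DMa (r = 0.688, rho = 0.719), Cd74 (r = 0.596, rho = 0.597), H2-DMb2 (r = 0.579, rho = 0.552), Ciita (r = 0.505, rho = 0.570) and H2-DMb1 (r = 0.335, rho = 0.282). The first 4 had an adjusted permutation p of 3.74e-05 and H2-DMb1 0.00117. Without the 2 mice farthest from the median of H2-Eb1, the r with H2-DMa was 0.762, and within title number ranges it was 0.590 and 0.794. For the other 4 genes r without 2 mice lay between 0.341 (H2-DMb1) and 0.661 (Cd74), and within the lower title number range H2-DMb1 had only 0.152, against 0.516 in the upper.

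In the 129 mice with its brightest row high, H2-Ab1 rose with Ciita (r = 0.644, rho = 0.635), H2-DMa (r = 0.581, rho = 0.567), H2-DMb2 (r = 0.530, rho = 0.50), H2-DMb1 (r = 0.426, rho = 0.416) and Cd74 (r = 0.356, rho = 0.340). The r with Ciita was 0.575 and 0.726 within the title number ranges and 0.635 without 2 mice. Without 2 mice the r of the other 4 lay between 0.345 (Cd74) and 0.574 (H2-DMa), and for Cd74 it was 0.221 and 0.490 within the title number ranges. The adjusted permutation p was 3.74e-05 for the first 4 and 0.000194 for Cd74.

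H2-Ea in its 83 high mice rose with H2-DMb2 (r = 0.421, rho = 0.394, adjusted permutation p = 0.00034) and H2-DMb1 (r = 0.382, rho = 0.381, adjusted permutation p = 0.00116). Without 2 mice these r were 0.386 and 0.376, and within title number ranges they lay between 0.344 and 0.50. Its r with Ciita was 0.235 (adjusted permutation p = 0.0688), with Cd74 0.176 and with H2-DMa 0.137, none of which passed. H2-Aa in its 79 high mice passed with none of the 5: the r with H2-DMa was 0.237 and with Ciita 0.167, with adjusted permutation p of 0.0727 and 0.242, although the rho with Ciita, 0.276, passed (adjusted permutation p = 0.0355). In its 59 low mice H2-Aa had r = 0.331 with Ciita (adjusted permutation p = 0.0249), at values where 19 were not detected, and r = 0.381 without 2 mice. Differences between these r values were not tested.

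Of the pairs of A and E chains, those with H2-Eb1 rose together among mice high in both. H2-Eb1 and H2-Aa had r = 0.535 and rho = 0.496 in the 59 mice high in both (adjusted permutation p = 0.000142), and H2-Eb1 and H2-Ab1 r = 0.471 and rho = 0.533 in the 96 mice high in both (adjusted permutation p = 3.74e-05). Without 2 mice these r were 0.434 and 0.550, and within title number ranges 0.604 and 0.426 for H2-Aa and 0.334 and 0.635 for H2-Ab1. The chains of the E molecule, H2-Ea and H2-Eb1, had r = 0.317 and rho = 0.335 in the 63 mice high in both (adjusted permutation p = 0.0256), and r = 0.306 without 2 mice. The chains of the A molecule, H2-Aa and H2-Ab1, had r = 0.212 in the 79 mice high in both, which did not pass (adjusted permutation p = 0.117). Nor did H2-Ea with H2-Aa (r = 0.002 in the 51 mice high in both, adjusted permutation p = 0.987) or with H2-Ab1 (r = -0.141 in the 74 mice high in both, adjusted permutation p = 0.341). In the 33 mice with H2-Eb1 low and H2-Ab1 high, these chains had r = 0.765 and rho = 0.697 (adjusted permutation p = 3.74e-05), and r = 0.668 without 2 mice. This r pooled the 20 mice with H2-Eb1 alone low and the 13 with all 4 rows of the combinations low. The brightest H2-Ab1 row lay at 11.8 to 12.9 in the former and 12.2 to 12.8 in the latter. The r within each was not taken. H2-Aa in its low mice had r = 0.409 with H2-Ab1 high (50 mice, adjusted permutation p = 0.00801) and r = 0.716 with H2-Eb1 low (13 mice, adjusted permutation p = 0.0149). The latter did not pass by rho (0.626, adjusted permutation p = 0.0553), and its r was 0.584 without 2 mice. H2-Aa was detected in 10 of these 13 mice. In the 33 mice with H2-Eb1 low, its r of 0.576 with H2-DMb1, 0.428 with H2-DMb2 and 0.597 with Ciita passed but rested on 2 mice, without which they were 0.315, 0.181 and 0.363.

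How the class II genes varied with the cells and signals of the lung was read from 6 scores, each the mean z value of a list of genes, with every kept row outside the list fitted on the score by limma and p adjusted by Benjamini-Hochberg over all of them. Slopes are log2 per SD of the score, and all fits use the 138 mice. In each of the 6 fits H2-Ea, H2-Aa, H2-Eb1 and the H2-Ab1 rows ILMN_1226525 and ILMN_2631423 did not pass. They had SEs of 0.119 to 0.235 log2, larger than those of the other rows, so slopes of the size seen elsewhere could not have been detected for most of them.

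With the interferon gamma response score (8 genes used, such as the chemokines Cxcl9 and Cxcl10), 11 of 17 class II rows passed, all rising, against 6.33% of 24434 rows called in either direction, and the median slope of the 17 was 0.199, against -0.004 for all rows. Ciita rose by 0.32 ± 0.04 log2 per SD (SE, adjusted p = 5.91e-13 for ILMN_2678211), H2-DMb1 by 0.21 ± 0.04 (adjusted p = 1.69e-06) and H2-DMb2 (ILMN_2589164) by 0.18 ± 0.03 (adjusted p = 5.71e-06). H2-DMa rose by 0.20 ± 0.04 (ILMN_2866856), the brightest H2-Ab1 row by 0.28 ± 0.05 and Cd74 by 0.06 ± 0.01 (ILMN_1221817), whose SD across mice is the smallest of the 17 rows. H2-Ea had a slope of -0.53 ± 0.23 (adjusted p = 0.174).

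With the mice of lines OR1427 and OR5513 left out, 8 class II rows passed. These mice were chosen because earlier results of these data showed high interferon values there. Their values of the present score were 2.82 and 3.07 SD, with a mouse of line OR5370 at 2.97. With the B cell and the monocyte and dendritic cell scores as covariates 5 rows passed, Ciita's ILMN_2678211 among them.

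With the monocyte and dendritic cell score (8 genes used, such as Csf1r, Ccr2 and Zbtb46), 10 of 17 rows passed, all rising, against 19.2% of 24436 rows called. Ciita's 2 rows rose by 0.28 ± 0.04 and 0.27 ± 0.04 (adjusted p = 2.62e-08 and 4.41e-07), H2-DMb1 by 0.20 ± 0.04 and H2-DMa by 0.16 ± 0.04 (ILMN_2866856). Limited to rows detected in every mouse, which also shortens the list, 3 rows passed.

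With the B cell score (8 genes used, such as Cd79a and Ms4a1), 6 of 17 rows passed, all rising, against 4.31% of 24433 rows called. They were both H2-DMa rows, both H2-DMb2 rows and 2 of 3 Cd74 rows. The dimmer H2-DMb2 row ILMN_2979639 had the largest of these slopes, 0.36 ± 0.06 (adjusted p = 3.98e-07), while ILMN_2589164 of the same gene had 0.14 ± 0.03 (adjusted p = 0.0036). Ciita did not pass, at 0.12 ± 0.04 (adjusted p = 0.105) and 0.07 ± 0.05. The H2-DO genes, which restrain H2-DM in B cells, rose with this score: H2-Oa by 0.28 ± 0.03 (adjusted p = 8.64e-11) and H2-Ob by 0.38 ± 0.07 (adjusted p = 3.64e-05). H2-Oa also rose with the monocyte and dendritic cell score, by 0.23 ± 0.04, and the interferon gamma response score, by 0.15 ± 0.04. H2-Ob passed with neither of these, at 0.08 ± 0.08 and 0.18 ± 0.08.

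With the alveolar macrophage score (6 genes used, such as Marco and Mrc1), 10 of 17 rows passed, all rising, against 20.3% of 24441 rows called, among them H2-DMb2 by 0.18 ± 0.03 (ILMN_2589164, adjusted p = 5.97e-06), Cd74 by 0.21 ± 0.03 (ILMN_1247832, adjusted p = 1.36e-06) and Ciita by 0.19 ± 0.04 (ILMN_2678211, adjusted p = 0.000328). With the alveolar type 2 cell score (10 genes used, such as Sftpc and Abca3), 2 of 17 rows rose, both of Cd74, and 1 fell, a Ciita row, against 35.4% of 24432 rows called. The Cd74 row ILMN_1247832 rose by 0.16 ± 0.04 (adjusted p = 0.00028), and with array brightness as a covariate only 1 of the 3 rows passed.

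With the type 2 immune score (12 genes used, such as Il13, Ccl11 and Retnla), 10 of 17 rows passed, all rising, against 24.5% of 24433 rows called. H2-DMb1 rose by 0.23 ± 0.03 (adjusted p = 3.77e-08), Ciita by 0.25 ± 0.04 (ILMN_2678211, adjusted p = 1.21e-07) and H2-DMb2 by 0.18 ± 0.03 (ILMN_2589164, adjusted p = 3.56e-06). With the mice of lines OR1427 and OR5513 left out 6 rows passed, and with the B cell and the monocyte and dendritic cell scores as covariates 4 did. The 6 scores were fitted one at a time on the same mice, and whether their slopes differ from each other was not tested.

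**Figure D5:**
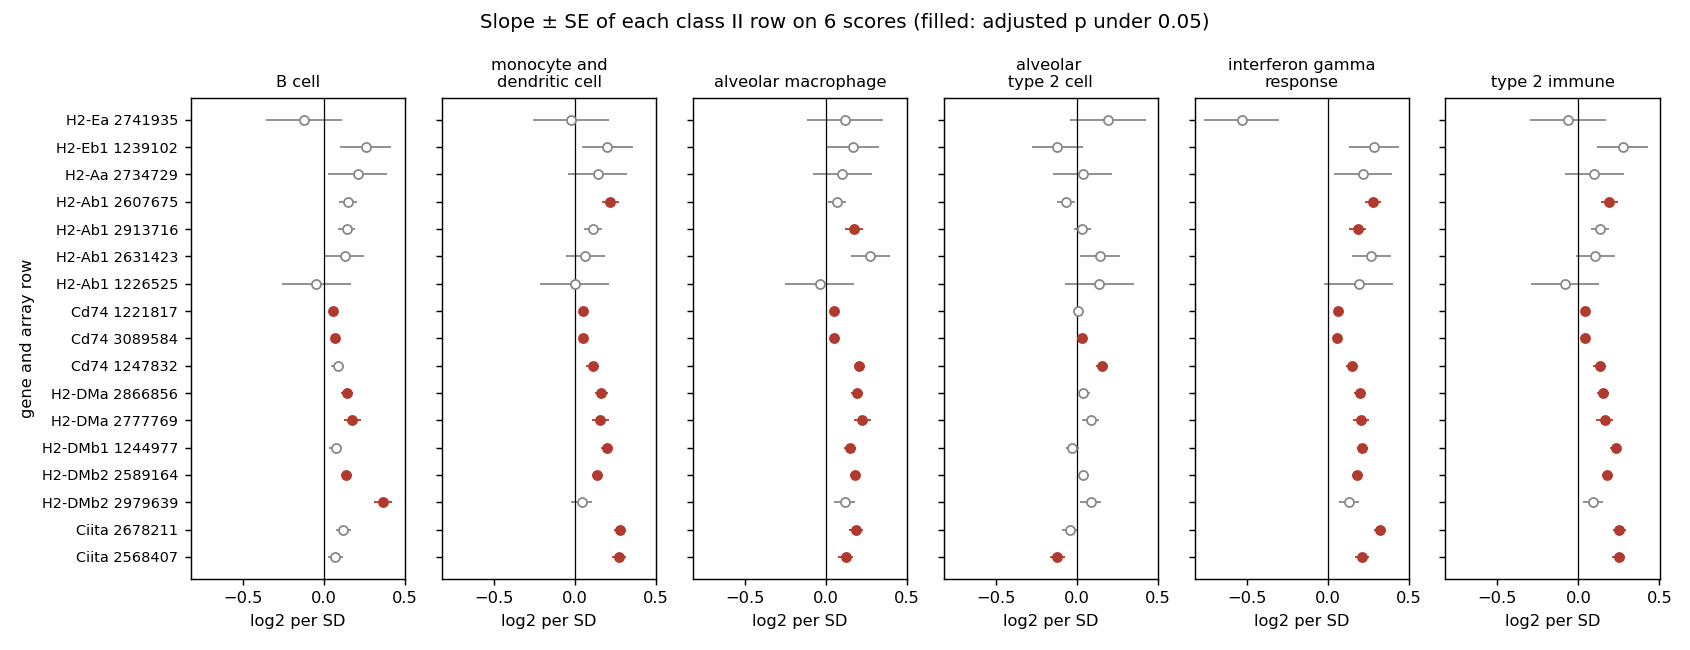
Slope ± SE (horizontal axis, log2 per SD of the score, 138 mice) of each of the 17 class II rows (vertical axis) on 6 scores. Filled red points passed limma with an adjusted p under 0.05 over all rows fitted, and open grey points did not. H2-Ea, H2-Eb1 and H2-Aa are open in all 6 panels with wide SEs, while 3 of 3 Cd74 rows are filled in the monocyte, macrophage, interferon gamma and type 2 immune panels.

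Among mice at the higher level alone, across combinations, the same scores and the levels of Cd74 and H2-DMa were set against the A and E genes (32 correlations in this family, permutation p adjusted by Benjamini-Hochberg). H2-Eb1 in its high mice passed with the monocyte and dendritic cell score (r = 0.414, rho = 0.446, adjusted permutation p = 8e-05), the interferon gamma response score (r = 0.317, rho = 0.308, adjusted permutation p = 0.00571), the alveolar macrophage score (r = 0.292, rho = 0.304) and the B cell score (r = 0.261, rho = 0.224), the last of which did not pass by rho (adjusted permutation p = 0.0584). Without the 2 mice farthest from the median of the score these r were 0.382, 0.252, 0.229 and 0.228. H2-Aa in its 79 high mice passed with the interferon gamma response score (r = 0.307, rho = 0.295), the type 2 immune score (r = 0.302, rho = 0.310) and the monocyte and dendritic cell score (r = 0.287, rho = 0.317), and r of 0.282, 0.308 and 0.338 without 2 mice. H2-Ea in its 83 high mice and H2-Ab1 (ILMN_1226525) in its 91 passed with none of the 6 scores, their r lying between -0.123 and 0.245. This H2-Ab1 row did pass with the H2-DMa level (r = 0.557, rho = 0.569, adjusted permutation p = 8e-05) and the Cd74 level (r = 0.356, rho = 0.318, adjusted permutation p = 0.00352). H2-Eb1 also passed with both of these levels, and H2-Ea and H2-Aa with neither. Within the title number ranges the H2-Eb1 r with the monocyte and dendritic cell score was 0.408 and 0.416.

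Fits on the level of a class II gene itself showed which other genes of the pathway moved with it. On the level of Cd74 (ILMN_1221817), 9 of 14 class II rows passed, all rising, against 10.6% of 24447 rows called, and on that of H2-DMa (ILMN_2866856) 13 of 15 passed, all rising, against 31% of 24448. With the H2-DMa level, H2-Aa rose by 0.79 ± 0.17 (adjusted p = 0.00013), H2-Eb1 by 0.40 ± 0.15 (adjusted p = 0.0381) and the H2-Ab1 rows ILMN_2913716 by 0.52 ± 0.03 and ILMN_2631423 by 0.86 ± 0.10. H2-Ea had -0.45 ± 0.23 (adjusted p = 0.13) and did not pass. These slopes span both levels of a gene, and within its levels H2-Aa did not pass with H2-DMa (r = 0.237 in the high and 0.204 in the low mice, adjusted permutation p = 0.0727 and 0.208).

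Of 8 genes that process antigen, 2 rose with Cd74, where 10.6% of all rows were called, and 3 with H2-DMa, where 31% were called, so the H2-DMa count is near that of all rows, and none fell. Ifi30, the reductase of the endosome, rose by 0.19 ± 0.03 and 0.27 ± 0.03 log2 per SD (adjusted p = 2.7e-05 and 8.8e-13), and Lgmn, an endosomal protease, by 0.12 ± 0.04 and 0.19 ± 0.03. Ctss, the cathepsin known to trim the invariant chain, had 0.02 ± 0.07 and 0.07 ± 0.07 and did not pass in either. Of 4 costimulatory genes 3 rose with Cd74 and 4 with H2-DMa, Cd86 by 0.19 ± 0.03 and 0.23 ± 0.03 and Cd83 by 0.20 ± 0.04 and 0.19 ± 0.04.

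Of the route from the interferon gamma receptor to Ciita, the kinase Jak2 rose by 0.11 ± 0.03 with Cd74 and 0.19 ± 0.02 with H2-DMa, while the transcription factor Irf1 had 0.03 ± 0.02 in both and did not pass. Of 6 genes of the RFX, NF-Y and CREB factors that bind the promoters, 0 of 6 passed with Cd74 (adjusted p from limma 0.307 to 0.98), and with H2-DMa Nfya rose by 0.10 ± 0.03 and Creb1 fell, with a slope of -0.11 ± 0.04, a share near that of all rows. H2-Oa, H2-Ob and H2-Eb2 rose with H2-DMa in 3 of 3 cases, H2-Ob by 0.46 ± 0.07. With Cd74 1 of 3 rose, H2-Oa by 0.23 ± 0.04. H2-Ob (0.16 ± 0.08) and H2-Eb2 (0.01 ± 0.03) did not pass with Cd74 (adjusted p from limma 0.165 and 0.848). Rfx5, Marchf1 and Marchf8 had no row among those kept.

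The cell scores gave other counts for the same lists. With the alveolar macrophage score, which called 20.3% of all rows, 4 of 8 antigen processing genes rose, Ifi30 by 0.31 ± 0.03 and Ctss by 0.32 ± 0.07 (adjusted p = 1.05e-18 and 9.88e-05), and 0 of 6 promoter-binding factor genes passed. With the monocyte and dendritic cell score, which called 19.2%, 4 of 4 costimulatory genes rose, Cd86 by 0.27 ± 0.03 (adjusted p = 3.03e-13), and of the factor genes Creb1 (0.17 ± 0.04) and Nfyc (0.07 ± 0.02). With the alveolar type 2 cell score 5 of 6 factor genes fell, Creb1 with a slope of -0.25 ± 0.04 (adjusted p = 1.06e-08), and Nfya rose by 0.08 ± 0.03, in a fit that called 35.4% of all rows. Differences between the fits were not tested.

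For each of the 9 members, the 5 other genes with the highest r to its row over the 138 mice, which share their arrays, were listed as a description, with no p. The 4 members with 2 levels were read by 1 row each, for H2-Ab1 the brightest and not the one used in the combinations. Of their 20 listed genes, 17 had a place in the RefSeq table and 17 of these 17 lay on chromosome 17. For the 5 members without 2 levels, read by their brightest row, 20 of 25 had a place and 1 of these 20 lay on chromosome 17. Of the first 20, 3 lay within 50 genes of their member. The share of all genes that lie on chromosome 17 was not counted.

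H2-Eb1 was most like Cyp4f16 (r = 0.867), Trim39 (r = 0.733) and H2-L (r = 0.731), a class I gene. H2-Aa was most like H2-T22 (r = 0.778), Enpp5 (r = 0.746) and Gm7030 (r = 0.738), followed by H2-Ob (r = 0.686), and H2-Ea like Guca1a (r = 0.564), H2-K1 (r = 0.554) and Polh (r = 0.515). The brightest row of H2-Ab1 was most like C2 (r = 0.569) and Def6 (r = 0.564). Such r values span both levels of the member. Within the higher level the r was 0.334 for Cyp4f16, 0.214 for H2-T22 and 0.346 for Guca1a. It was 0.616 for H2-L and 0.615 for H2-Ob, and lay between -0.029 and 0.331 for the rest of the genes just named. H2-K1, H2-L and the H2-Q and H2-T genes have near-identical copies, so their rows may read more than 1 gene.

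Ciita was most like Aif1 (r = 0.699), a gene of macrophages and microglia, Irf5 (r = 0.689) and Cxcl9 (r = 0.658), a chemokine induced by interferon gamma. Irf5, a transcription factor of myeloid and B cells on chromosome 6, was also among the 5 nearest to Cd74 (r = 0.549), H2-DMb1 (r = 0.601) and H2-DMb2 (r = 0.689). H2-DMa was most like Ptpro (r = 0.666), Cmtm7 (r = 0.639) and Clec4a3 (r = 0.633). The other H2-DMa row, ILMN_2777769, was nearest to H2-T23 (r = 0.673), Ppil1 (r = 0.606) and H2-Ob (r = 0.563), all on chromosome 17, and the 5 nearest to ILMN_2979639 of H2-DMb2 held Abhd16a, H2-Ob and Psmb8, also on chromosome 17, beside Blnk on chromosome 19, so the nearest genes of H2-DMa and H2-DMb2 depended on the row read.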

How the data were processed

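Lung RNA of 138 mice was measured on Illumina WG6v2 arrays. The deposited scanner table holds an intensity per row and array, not normalised, with a detection p-value beside it, per the file headers. The authors also deposited log2 values of the same arrays, made with GenomeStudio and, in R 2.9.2, RMA with quantile normalisation, per the submitters' processing notes and the series' design text. The deposited log2 values are the main values here: every column had a median of 5.57, and each of 138 correlated best with its own array's intensities (r from 0.996 upward).

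Rows were named by target name, updated through RefSeq (GRCm38.p6). Fits used limma 3.58.1 in R 4.3.3, and mixtures and 100000-draw permutations used Python 3.11.15, numpy 2.4.6 and scipy 1.17.1. A gene was read by its kept row with the highest mean. Each fit was tested on simulated data. The p-values measure the spread between mice, 1 a line. Alternatives were neqc values from the intensities, other filters, brightness, title number and cell scores as covariates, mice left out, Spearman's rho and other mixture thresholds. The genes to name were all members and their rows, the pathway lists and the 5 genes most like each member, passing over clone names other than Gm7030, and the text gives examples of the last 2 kinds. The members and lists were chosen with earlier results of these data known. Some genes of these lists are not reported here.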

Additional observations from a re-analysis of the deposited data

How the results depend on the processing

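Of 72 slopes that passed, recomputed in 464 results under 7 alternatives, 413 kept their direction and side of the threshold, 51 no longer passed and 0 reversed. The number of slopes recomputed differed between alternatives. With the cell score covariates, run for only some of the fits, 15 slopes were lost and 28 kept. Limited to rows detected in every mouse, 13 were lost and 48 kept. Each of the other alternatives lost at most 12, and the title number as a covariate lost 0. The causes of the changes below were not tested, beyond that fewer rows or mice enter some fits. Limited to rows detected in every mouse, calls numbered 520 (B cell score), 5674 (alveolar type 2 cell), 497 (interferon gamma response), 3362 (type 2 immune) and 4898 (H2-DMa level), and class II rows called numbered 3 (monocyte and dendritic cell), 7 (interferon gamma response) and 6 (type 2 immune). With the mice of lines OR1427 and OR5513 left out there were 700 interferon gamma response calls, 1697 calls on the Cd74 level and 6 class II rows with the type 2 immune score. With the B cell and the monocyte and dendritic cell scores as covariates, 453 rows were called with the interferon gamma response score, and 5 and 4 class II rows with it and with the type 2 immune score. With array brightness as a covariate, 2713 rows were called with the monocyte and dendritic cell score and 1 class II row with the alveolar type 2 cell score. Correlations within a level that passed numbered 14 with title numbers up to 100, against 22. Rows with 2 separated levels numbered 831 on unnormalised log2 signals and 2798 with means over 2 pooled SDs and 0.5 log2 apart, against 1483, and class II rows among them 6 and 7, against 7. With neqc values H2-Ea had 42 low mice, the 42 in which it was not detected, in place of 55. Chosen after seeing the data, the combinations were recounted: 9 were seen with neqc values and 9 on unnormalised signals, the ninth (H2-Ea alone high) in 4 mice and 1 mouse, and with neqc values the most frequent was all 4 rows high (27 mice), not H2-Ea alone low (21). No paired analysis was possible because all mice form 1 group. Dim rows, such as H2-Ea and H2-Aa at their lower levels, limit what can be said of changes there.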
